A study of Mus musculus with 6 samples.

Results

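The 9 genes described here encode parts of the Jak-STAT pathway: the kinases Jak1 and Jak2, the transcription factors Stat2, Stat3, Stat5a and Stat6, and the inhibitors Socs1, Socs2 and Socs3. They were chosen by name, as the rows of the deposited table whose gene column lists one of these symbols. This gave 12 of 44519 rows, 1 for each of 6 genes and 2 for each Socs gene. The data are bulk RNA sequencing of cells that were sorted by GFP from the olfactory neuroepithelium of mice. The cells are labelled as horizontal basal stem cells, the reserve stem cells at the base of this epithelium, and all mice carried the Krt17-EGFP reporter. The control group (3 libraries, replicates 1, 2 and 4) had the reporter alone and no doxycycline. In the TNF group (3 libraries, replicates 1, 3 and 4) mice also carried Cyp2g1-rtTA and TRE-TNF and had doxycycline for 6 weeks, so that tumor necrosis factor (TNF) was made under a promoter of sustentacular cells, the supporting cells of the epithelium. Genotype, transgene and doxycycline changed together, so their effects cannot be told apart, and the labels do not say whether each RNA sample came from 1 mouse.

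Cytokine and interferon receptors have no kinase of their own. They hold Jak kinases, which phosphorylate the receptor and then STAT proteins, and paired STAT proteins enter the nucleus and switch on genes. Socs genes are among those targets, and their proteins bind receptors, kinases or both and recruit a ubiquitin ligase, which closes the loop. TNF receptors do not hold Jak kinases, but cells exposed to TNF make cytokines that act through this pathway.

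The TNF libraries held more STAT and Socs transcript than the control libraries. Of the 9 genes 7 were higher (Jak2, Stat2, Stat3, Stat5a, Stat6, Socs1 and Socs3), 0 were lower and 2 (Jak1 and Socs2) did not pass the test. Of all 15037 tested rows 10.9% were higher and 27.2% lower, 38.0% in either direction (limma on log2(FPKM + 1), adjusted p below 0.05, n = 3 per group). With TNF replicate 1 left out 8 of the 9 genes were higher, and with any other single library left out 5 were. FPKM counts fragments per kilobase of transcript, scaled to the size of the library, and the submitters do not state how. For each gene, FPKM is given per library in the order of control replicates 1, 2 and 4, then TNF replicates 1, 3 and 4. The same 7 genes had every TNF library above every control library, which held for 16.8% of tested rows, and 0 had every TNF library below every control library, which held for 36.2%. The median log2 change of the 9 genes was 1.15, and that of all tested rows was -0.22. Since p-values rest on these samples, they measure the spread among them, which may be partly technical.

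**Figure D1:**
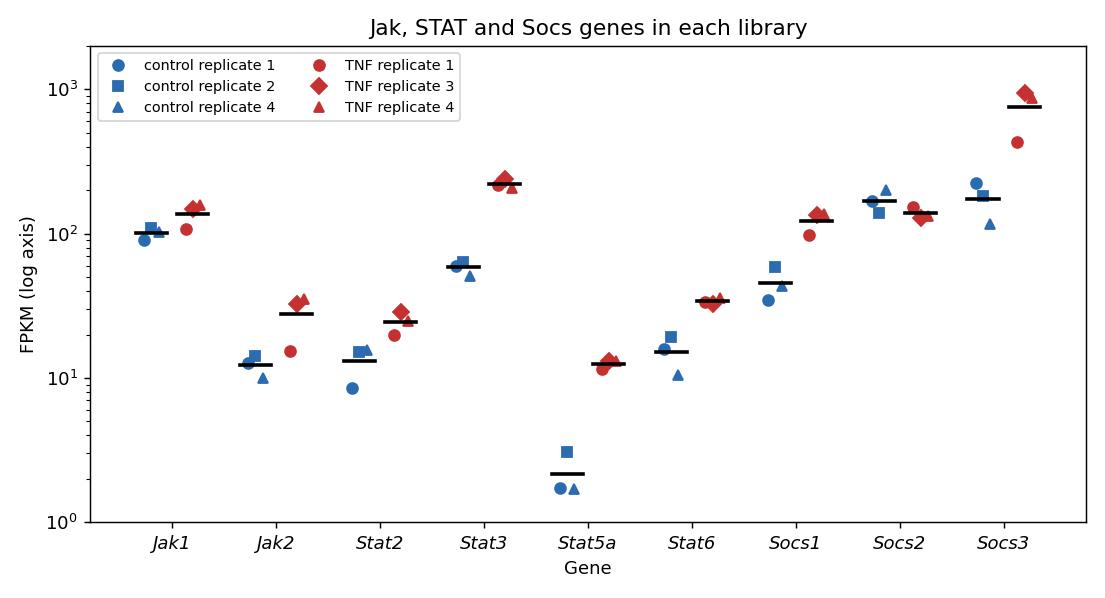
FPKM on a log axis for the 9 genes, in blue for control and red for TNF libraries, with 1 marker shape per replicate number and black lines for the group means. The red points lie above the blue points for 7 genes, and both groups overlap for Jak1 and Socs2.

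The libraries were mixtures in which cell type markers moved too. FPKM summed to 688190 to 838417 per library, and read depth is unknown. Trp63, the transcription factor of horizontal basal cells, was present at 68.6 to 117 FPKM in all 6 libraries, but neuron markers were present as well. Summed over 18 rows of horizontal basal cell markers, control replicates 1, 2 and 4 held 3092, 3740 and 1020 FPKM. TNF replicates 1, 3 and 4 held 8771, 6611 and 6373 FPKM. The largest row merged Krt14 with Krt17, the gene that the sort reporter is named after. Its levels were 1768, 2265 and 402 FPKM in control libraries and 5651, 3793 and 3645 FPKM in TNF libraries. This merged row did not pass the test (limma adjusted p = 0.0741). Of the 18 rows 10 rose and 0 fell, against 10.9% and 27.2% of all tested rows. The median log2 change of the 18 rows was 1.30, above the 1.15 of the 9 pathway genes. All 11 mature olfactory neuron markers fell, from sums of 3404 to 6682 FPKM in control to 36.9 to 1153 FPKM in TNF libraries. Fewer cells of a type and less RNA per cell cannot be told apart in such bulk samples. When the libraries were scaled to the horizontal basal cell markers, 0 of the 9 genes were higher and 1, Socs2, was lower, and of all rows 240 were higher and 10385 lower. Every change below is therefore relative to total RNA of the sort, as scaled in the deposited values, unless the marker scaling is named. Its divisors were 0.776, 0.845 and 0.335 for control replicates 1, 2 and 4, and 1.838, 1.606 and 1.542 for TNF replicates 1, 3 and 4. Control replicate 4 thus stood apart from the other controls. The standard errors of all 9 genes grew under this scaling, for Stat3 from 0.156 to 0.437. A call lost there can reflect more spread as well as a smaller change.

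Among the kinases, Jak2 rose and Jak1 did not pass the test. Jak1 (chromosome 4, 101152367 to 101265282, GENCODE M21 on GRCm38, the assembly of mm10) serves interferon, gp130 and common gamma chain receptors. Its control values were 90.5, 109 and 102 FPKM, and its TNF values were 107, 147 and 159 FPKM. The groups overlapped, because TNF replicate 1 lay below control replicate 2. The log2 change was 0.43 ± 0.20 (SE, limma adjusted p = 0.126), and it passed without TNF replicate 1 (0.60, adjusted p = 0.0158).

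Jak2 (chromosome 19, 29251828 to 29313080) acts at interferon gamma, growth hormone and several hematopoietic cytokine receptors. The control libraries held 12.6, 14.2 and 10 FPKM, and the TNF libraries 15.5, 32.3 and 35.5 FPKM. TNF replicate 1 was thus close to the controls, while the other TNF libraries were more than 2 times the highest control. Jak2 rose by 1.05 ± 0.33 on the log2 scale (limma adjusted p = 0.0463). The call rested on all libraries except TNF replicate 1, since each other omission ended it (adjusted p = 0.0852 to 0.149), and the change was -0.33 when scaled to horizontal basal cell markers. In control libraries Jak1 was above Jak2 by a wide margin (group means of 101 and 12.3 FPKM), and FPKM is corrected for transcript length.

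Stat3 (chromosome 11, 100885098 to 100939540), the main STAT of interleukin 6 family receptors, had the smallest standard error of the 9 genes. Control libraries held 60.0, 63.7 and 51.1 FPKM of it and TNF libraries 218, 238 and 207 FPKM. The lowest TNF library held over 3 times the highest control library, and the TNF libraries lay close together. Its log2 change was 1.91 ± 0.16 (SE, limma adjusted p = 0.000476), with means of 58.3 ± 6.46 and 221 ± 15.9 FPKM (SD, n = 3 each). No omission of a single library ended this call. Scaled to the horizontal basal cell markers the change was 0.47 (adjusted p = 0.349).

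Stat5a (chromosome 11, 100859351 to 100885169) lies beside Stat3 and transmits prolactin, growth hormone and interleukin 2 family signals. Its FPKM was 1.72, 3.09 and 1.70 without and 11.5, 13.0 and 13.1 with the TNF transgene. It had the lowest level of the 9 genes in both groups and a log2 change of 2.12 ± 0.24 (limma adjusted p = 0.00109), within the standard error of that of Socs3. The 2 genes are on opposite strands and share 0.8% of the exon bases of Stat3 and 1.0% of those of Stat5a, and the deposited table gives both rows 1 common locus. With scaling to the horizontal basal cell markers, Stat5a was at 0.93 (adjusted p = 0.0848). Its neighbor Stat5b, whose protein overlaps in function, had control values of 4.23, 6.88 and 4.71 FPKM and TNF values of 7.34, 10.4 and 11.5 FPKM (0.78 ± 0.26, limma adjusted p = 0.0545), so it missed the threshold although its groups did not overlap. Stat5b was above Stat5a in every control library, whereas Stat5a was above Stat5b in every TNF library.

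Stat6 (chromosome 10, 127642986 to 127660957), the STAT of interleukin 4 and 13 receptors, went from control levels of 15.8, 19.3 and 10.6 FPKM to TNF levels of 33.9, 32.5 and 35.7 FPKM. The TNF libraries were close together and all above the controls. The log2 change was 1.15 ± 0.23 (limma adjusted p = 0.00897), a call that held without each single library and was lost when scaled to horizontal basal cell markers, where the value was -0.24.

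Stat2 (chromosome 10, 128270559 to 128292849) works with Irf9 in the complex that answers type I and type III interferon. Levels were 8.58, 15.1 and 15.6 FPKM in the controls against 20.0, 28.8 and 24.6 FPKM in the TNF group. Control replicate 1 was the lowest library, and the groups did not overlap. The rise of 0.88 ± 0.27 on the log2 scale (limma adjusted p = 0.0415) was within its standard error of that of Jak2. Omission of any 1 library except TNF replicate 1 ended the call (adjusted p = 0.0549 to 0.143), and the value was -0.50 when scaled to horizontal basal cell markers.

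Socs3 (chromosome 11, 117966079 to 117970047), a target of Stat3 that blocks gp130 receptors and their kinases, had the highest level of the 9 genes in every TNF library, while in controls its range overlapped with that of Socs2. The controls had 225, 183 and 117 FPKM and the TNF libraries 431, 943 and 878 FPKM. Every TNF library exceeded every control library, and TNF replicate 1 lay between the controls and the other TNF libraries. The log2 change was 2.07 ± 0.39 (SE, limma adjusted p = 0.00644). No single omission ended the call, and with scaling to horizontal basal cell markers the value was 0.61 (adjusted p = 0.273). A second row named Socs3 held 0.0312 FPKM in control replicate 1 and was listed at 0 in the other libraries.

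Socs1 (chromosome 16, 10782240 to 10785536), an interferon-induced inhibitor that binds Jak kinases directly, had 34.7, 59.1 and 43.2 FPKM in the controls and 97.2, 135 and 138 FPKM in the TNF libraries. All TNF libraries were above all controls, with replicate 1 again the lowest of them. Socs1 rose by 1.43 ± 0.25 (limma adjusted p = 0.00469), which no single omission ended, but with scaling to horizontal basal cell markers it was at -0.0095. Its second row rose as well, from 0.973 ± 0.392 to 3.06 ± 0.496 FPKM (SD, n = 3 each; 1.05 ± 0.22, adjusted p = 0.00942), a call lost without control replicate 1 (adjusted p = 0.0608).

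Socs2 (chromosome 10, 95385362 to 95417180), the inhibitor of growth hormone receptor signaling, did not pass the test. The control values, 167, 139 and 200 FPKM, overlapped with the TNF values, 154, 129 and 132 FPKM. The log2 change was -0.28 ± 0.19 (limma adjusted p = 0.290). Socs2 and Socs3 were at similar levels in control libraries, with overlapping ranges of 139 to 200 and 117 to 225 FPKM. In TNF libraries the ranges were apart, at 129 to 154 and 431 to 943 FPKM. Its second row was at 1.23 to 1.61 FPKM in control and 0.768 to 0.829 FPKM in TNF libraries (-0.42 ± 0.16, adjusted p = 0.0714). This row reached the filter of 1 FPKM through the control libraries alone. Scaled to horizontal basal cell markers, the main Socs2 row was called lower, at -1.73 (adjusted p = 0.0133).

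The stretches before the start sites of Socs1, Stat2 and Socs3 are shown because they hold the letters of the sites that this pathway is known to use. RefSeq promoter windows (GRCm38.p6, 250 bases before to 50 after a start) matched 8 of the 9 genes, in 9 windows, and Socs2 had none. Both strands were searched for TTCNNNGAA, the STAT homodimer site, and for GAAA, any 2 bases and GAAA again, the core of the interferon-stimulated response element, and a match may overlap another. Sequences run 5′ to 3′ on the strand of the gene, with matches in capitals.
Socs1 (chr16:10785537-10785686, minus strand): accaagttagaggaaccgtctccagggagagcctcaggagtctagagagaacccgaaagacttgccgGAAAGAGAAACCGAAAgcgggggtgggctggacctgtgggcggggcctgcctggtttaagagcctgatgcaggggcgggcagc
Stat2 (chr10:128270248-128270367, plus strand): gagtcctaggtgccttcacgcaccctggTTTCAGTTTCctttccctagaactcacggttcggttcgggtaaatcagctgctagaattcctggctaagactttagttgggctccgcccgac
Socs3 (chr11:117969502-117969530, minus strand): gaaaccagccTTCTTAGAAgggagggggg
Socs1 held 2 overlapping interferon element matches, which begin 83 and 77 bases before its start, and Stat2 held 1 on the reverse strand, 222 bases before. Socs3 held 1 STAT site match 154 bases before the RefSeq start, within the longer Socs3 gene of GENCODE M21. Over all 32851 windows, 3.44% held the interferon element letters and 8.30% the STAT site letters. Among the 9 windows of these genes 2 and 1 held them. A match is a description of the letters and not a test of binding.

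**Figure D2:**
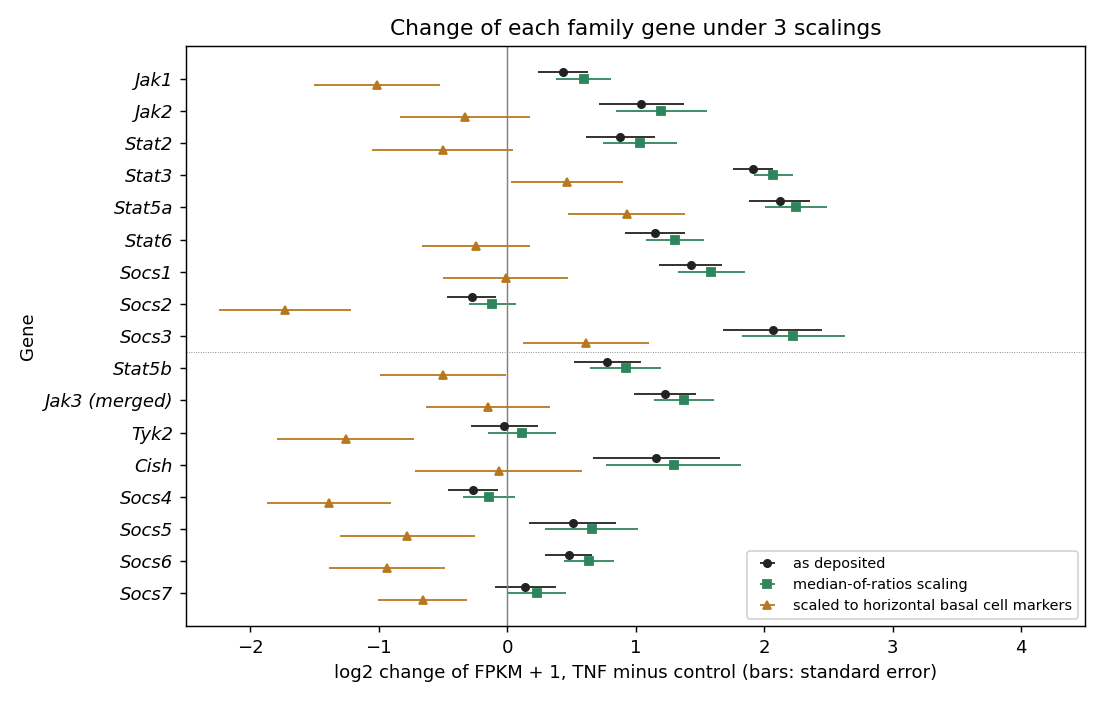
Log2 change of FPKM + 1 (TNF minus control, bars for the standard error) for the 9 genes above the dotted line and 8 family rows below it, as deposited, after median-of-ratios scaling and after scaling to horizontal basal cell markers. Median-of-ratios scaling moved all points slightly to the right, while marker scaling moved them left and left Stat3, Stat5a and Socs3 above 0.

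Stat3 stood higher in the order of levels in TNF than in control libraries. In control libraries Socs3 and Socs2 led with overlapping ranges, followed by Jak1 (101 FPKM), then Stat3 and Socs1 with overlapping ranges (58.3 and 45.7 FPKM). Stat6, Stat2 and Jak2 came next at means of 15.2, 13.1 and 12.3 FPKM, neighbors whose ranges overlapped, and Stat5a was last at 2.17 FPKM. In TNF libraries Stat3 stood second, at 221 FPKM, apart from Socs3 above it and from Socs2 below it. There Socs2, Jak1 and Socs1 followed at means of 138, 138 and 123 FPKM, each overlapping with its neighbor, then Stat6, Jak2 and Stat2 at 34.0, 27.8 and 24.5 FPKM, and Stat5a last at 12.5 FPKM.

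The TNF libraries were alike for some of the genes and unlike for others. Relative to the control mean on the log2(FPKM + 1) scale, Stat3 was at 1.89, 2.02 and 1.82 in TNF replicates 1, 3 and 4, and Stat6 at 1.14, 1.09 and 1.22. Stat5a was similar, at 2.01, 2.17 and 2.18. These STAT genes were therefore raised to nearly the same degree in each TNF library. Socs3 by contrast was at 1.35, 2.48 and 2.37, Jak2 at 0.32, 1.34 and 1.47, and Jak1 at 0.10, 0.55 and 0.66. Cish, a Stat5 target and Socs relative, was at 0.04, 1.64 and 1.81 and Socs5 at -0.21, 0.80 and 0.95, so TNF replicate 1 was the lowest TNF library for each of these genes.

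Fibroblast, endothelial and stress gene sums were also lowest among TNF libraries in replicate 1. Over 10 fibroblast markers the summed level was 73.5 FPKM in TNF replicate 1, 1135 and 1614 FPKM in replicates 3 and 4, and 151 to 537 FPKM in control libraries. For 10 endothelial markers the sums were 4.41, 111 and 170 FPKM against 37.0 to 48.9 FPKM in control. The endothelial marker Kdr and the fibroblast markers Mfap5 and Dpt were listed at 0 in TNF replicate 1. Stress genes, mostly of the immediate early class, summed to 5193, 17640 and 15520 FPKM, against 4366 to 5995 FPKM in control. Sums of several other cell types were instead highest there: mature neuron markers at 1153 FPKM against 46.5 and 36.9 in replicates 3 and 4, sustentacular cell markers at 2003 against 1183 and 1307, and macrophage markers at 81.4 against 34.9 and 40.0 FPKM. Horizontal basal cell markers followed this second order, at 8771, 6611 and 6373 FPKM. Of the tested markers 1 of 7 fibroblast, 0 of 7 endothelial and 2 of 9 stress rows were called higher, and 0 of each lower. Of all tested rows 10.9% were higher and 27.2% lower. Their part in the levels of Socs3, Jak2, Cish and Socs5 was not tested. Without TNF replicate 1 the log2 change was 2.42 for Socs3 and 1.41 for Jak2, and Cish passed (1.72, limma adjusted p = 0.00458), as did Socs5 (0.87, adjusted p = 0.0170).

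**Figure D3:**
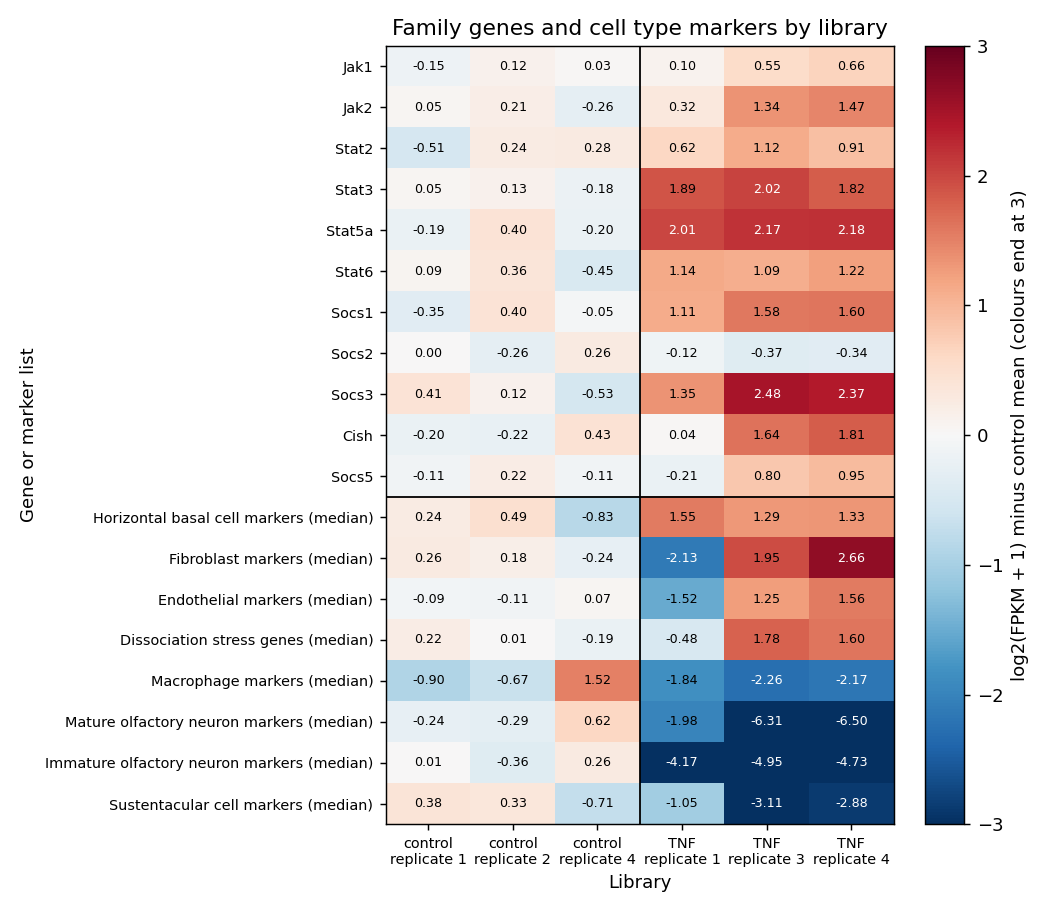
Log2(FPKM + 1) minus the control mean in each library, for the 9 genes with Cish and Socs5 above the line and for the median of 8 marker lists below it. Stat3, Stat5a and Stat6 have nearly equal values in the 3 TNF columns, while Socs3, Jak2, Cish and Socs5 are lower in TNF replicate 1, as are the fibroblast, endothelial and stress medians.

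Of the other family genes, 1 of 8 rows was higher and 0 lower, with a median log2 change of 0.50. This share, 12.5%, was near the 10.9% of all tested rows that were higher, while 27.2% of all were lower. The higher row was a merged row of Jak3, the kinase of the common gamma chain, with its neighbor Insl3. This row gave control values of 7.52, 13.6 and 9.58 FPKM and TNF values of 26.9, 25.6 and 21.6 FPKM (1.23 ± 0.24, limma adjusted p = 0.00783), and how much of it is Jak3 is unknown. The kinase gene Tyk2 was at 5.52 ± 1.72 and 5.26 ± 0.256 FPKM (SD, n = 3 each), a change of -0.02 ± 0.26 that was 0.12 with median-of-ratios scaling. Socs6 was at 29.3 ± 4.38 and 41.2 ± 5.62 FPKM (adjusted p = 0.0822), Socs4 at 3.67 ± 0.364 and 2.89 ± 0.380 FPKM (adjusted p = 0.319), and Socs7 at 1.17 ± 0.350 and 1.42 ± 0.590 FPKM (adjusted p = 0.671). Without TNF replicate 1, 5 of these rows were higher, and with median-of-ratios scaling 3 were. Scaled to horizontal basal cell markers, 0 were higher and 1 lower, and the Jak3 row was at -0.15.

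Receptor chains that hold Jak kinases were mostly higher where they changed. Of 27 rows tested 11 rose and 2 fell, against 10.9% and 27.2% of all tested rows, with a median log2 change of 0.87. The oncostatin M receptor gene Osmr rose from 4.12 ± 2.07 to 29.7 ± 7.70 FPKM (2.63 ± 0.36, limma adjusted p = 0.00197), while the shared gp130 chain Il6st was at 69.3 ± 36.4 and 123 ± 42.2 FPKM (adjusted p = 0.185). Il15ra, the high-affinity interleukin 15 receptor, rose by 2.53 ± 0.32. The interleukin 4 and 13 receptor genes that activate Stat6 rose as well, Il4ra by 1.67 ± 0.18 and Il13ra1 by 1.89 ± 0.28. Without control replicate 4 and TNF replicate 1 together, 17 receptor rows were higher, and without control replicate 1 alone 8 were. Scaled to horizontal basal cell markers, 2 were higher and 5 lower of 29 tested. Il4ra (0.33, limma adjusted p = 0.561) and Il13ra1 (0.46, adjusted p = 0.329) lost their call there. The 2 rows lower as deposited, Il10ra and Il7r (named after their values were seen), reached 1 FPKM in control libraries only. They thus passed the filter through the group where they are high.

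Of the ligands, most of the 33 genes did not reach the filter. Among 13 tested rows 5 rose and 1 fell (median 0.45), against 10.9% and 27.2% of all tested rows. Of the called ligands, Il23a and Csf3 passed the filter through the TNF libraries alone. The lower one, Il22 (named after its values were seen), passed through the control libraries alone, so those 3 rows had to differ. Il23a, a subunit of interleukin 23, was at 0.141 ± 0.212 and 20.9 ± 8.64 FPKM and rose by 4.19 ± 0.37. Csf3, whose receptor signals through Stat3, rose by 2.82 ± 0.28, the lymphoid growth factor Il7 by 1.61 ± 0.28, and Lif, a gp130 ligand, by 1.95 ± 0.46 from 2.05 ± 1.47 FPKM. Il6, the best known gp130 ligand, had control levels of 37.3, 31.5 and 12.6 FPKM and TNF levels of 4.69, 82.2 and 90.6 FPKM, so it differed more between TNF libraries than between groups (0.45 ± 1.08, limma adjusted p = 0.773). It passed without TNF replicate 1 (1.77, adjusted p = 0.0221). Without TNF replicate 3, and likewise without TNF replicate 4, 1 ligand was higher: Il23a and Csf3 then missed the filter and were not tested, while 2 ligands were tested and lost their call, Lif among them (adjusted p = 0.0585 and 0.0518).

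Interferon targets, the genes that Stat2 and Irf9 act on, were mostly higher. Of all tested rows 10.9% rose and 27.2% fell, while of 16 tested interferon target rows 13 rose and 0 fell, with a median of 1.55. They included Oas1a, an antiviral synthetase (3.65 ± 1.06 and 18.6 ± 1.71 FPKM), Irf7, which amplifies interferon output (2.13 ± 0.26), Rtp4 (2.18 ± 0.29) and the merged row of Irf9, the partner of Stat2, with Rnf31 (1.13 ± 0.17). The count was 7 without control replicate 1 and 8 without TNF replicate 3. All 4 rows lost their call when scaled to horizontal basal cell markers, and the Irf9 row was then at -0.29.

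Of 20 Stat3 targets 11 rose and 1 fell, against 10.9% and 27.2% of all tested rows, with a median of 1.13. The nuclear I-kappa-B protein gene Bcl3 rose from 11.8 ± 3.85 to 113 ± 12.8 FPKM (3.18 ± 0.23, limma adjusted p = 0.000397). Saa3, an acute phase protein of mucosa, rose by 4.92 ± 0.66 and the protease inhibitor gene Timp1 by 2.96 ± 0.43. These 3 calls held when scaled to horizontal basal cell markers, but 6 others of the list were lost. With that scaling 4 Stat3 targets were higher and 2 lower of 19 tested. The survival gene Bcl2l1 fell from 107 ± 28.5 to 41.9 ± 8.47 FPKM. Fos had TNF levels of 511, 3354 and 3036 FPKM around a control range of 756 to 1272 FPKM, and it passed without TNF replicate 1 (1.70, adjusted p = 0.00456). The count of higher Stat3 targets was 5 without TNF replicate 3 or 4, where Fgg, which passed the filter through the TNF libraries alone, was not tested, and 7 without control replicate 1. Bcl3, Fos, Saa3 and several others also answer NF-kB or stress signals, so the list is not specific to Stat3.

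The counts for Stat5 and Stat6 targets were near the 38.0% of all tested rows that changed in either direction. Of 7 Stat5 targets 1 rose and 1 fell, with a median log2 change of 1.16: Id1, an inhibitor of differentiation factors, rose by 1.53 ± 0.30, and the kinase gene Pim2 fell by 0.82 ± 0.24 (limma adjusted p = 0.0360), a call lost without any single library other than TNF replicate 4. Of 8 Stat6 targets 2 rose and 1 fell, with a median of 0.60. The lipoxygenase gene Alox15 rose from 12.8 ± 1.17 to 172 ± 7.47 FPKM (3.65 ± 0.14, adjusted p = 0.000291) with little spread in either group, and Spdef, a factor of secretory cells, rose by 1.39 ± 0.26. The cadherin gene Cdh26 fell by 0.88 ± 0.28 (adjusted p = 0.0474), and that call was lost without any single library other than control replicate 4. Without TNF replicate 1, 3 Stat5 and 4 Stat6 targets were higher.

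Phosphatase, Pias and adaptor genes of the pathway had shares near those of all tested rows, 10.9% higher and 27.2% lower. Of 17 phosphatase, Pias and adaptor genes 2 rose and 4 fell, with a median of -0.04, and of the 2 higher rows, Ptpn2 and Ptprt, the latter passed the filter through the TNF libraries alone. The 4 lower genes were Stam, an endosomal adaptor (-1.09 ± 0.19), the leukocyte phosphatase genes Ptprc and Ptpn6 (-2.22 ± 0.39 and -1.26 ± 0.23) and Sh2b2 (-2.01 ± 0.37). Ptprc encodes CD45, a marker of all leukocytes. Beside it 7 of 10 tested macrophage markers fell, 3 of which passed the filter through the control libraries alone. Control replicates 1, 2 and 4 had macrophage marker sums of 155, 168 and 1160 FPKM, against 34.9 to 81.4 FPKM in TNF libraries. The part of leukocyte RNA in these falls was not tested. The Elongin, Cullin and Rbx proteins that join Socs proteins to the ubiquitin machinery gave 0 higher and 1 lower of 6 genes (median -0.31). The lower one, Rbx1, fell by 0.79 ± 0.24 (limma adjusted p = 0.0390), a call that ended with omission of any library except TNF replicate 1, without which 3 of the 6 were lower.

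**Figure D4:**
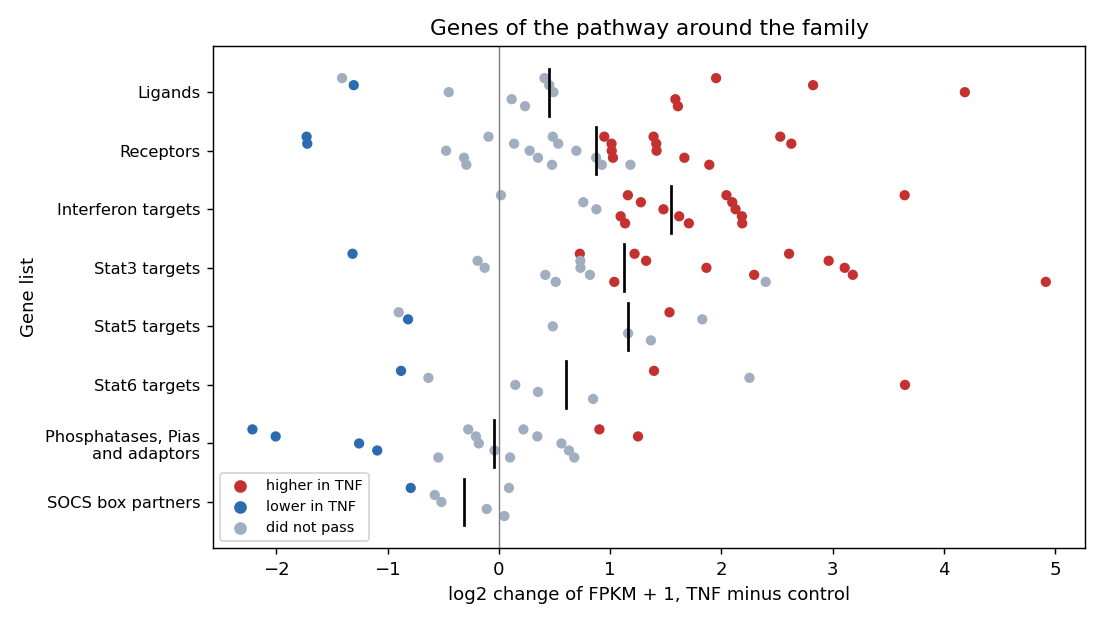
Log2 change of FPKM + 1 (TNF minus control) for the tested genes of 8 lists, red where higher, blue where lower and grey where the test was not passed, with a black line at each list's median. Medians lie at 1.55 for interferon targets and 1.13 for Stat3 targets. They lie at -0.04 for phosphatases, Pias proteins and adaptors and at -0.31 for SOCS box partners.

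Rows whose pattern over the 6 libraries was most like that of a member were found by Pearson correlation of log2(FPKM + 1) among 9352 other rows with a mean of at least 5 FPKM. With 6 libraries in 2 groups and so many rows, coefficients near 1 are common, and they share the group difference and the makeup of each library. Stat3 was closest to the zinc transporter gene Slc39a4 (0.9988), to Erbb2 (0.9985) and to Lzts3 (0.9979). The rows nearest to Socs3 were Gxylt2, Klf9 and Slc25a24 (0.999, 0.999 and 0.997). Klf9 had TNF levels of 25.6, 60.8 and 57.4 FPKM, with TNF replicate 1 lowest as for Socs3. Stat5a was closest to Slc5a9, Stat6 to Lrrc26, Jak2 to the ubiquitin ligase gene Birc2, Jak1 to Kctd10, Socs1 to Lman2 and Socs2 to Ift27. Among the members themselves Stat3 and Stat5a were closest (0.988), and the coefficients of Socs2 with the other 8 genes were all negative, from -0.847 to -0.605.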

How the data were processed

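The authors deposited 1 table with an FPKM value per library and row, although its title speaks of raw counts. No count model was used, since 99.98% of the nonzero values are not whole numbers. The submitters' processing notes name mm10, TopHat2 2.1.1, Cuffdiff 2.2.1, FastQC 0.10.1 and bcl2fastq, without settings, library scaling or strand handling. A row was tested when 3 or more libraries reached 1 FPKM. The fit was limma 3.58.1 (R 4.3.3) with an intensity trend, and its input was log2(FPKM + 1), where the pseudocount of 1 understates changes of low genes. P-values were adjusted by Benjamini-Hochberg over all 15037 rows, threshold 0.05. Of the 12 rows naming a member 11 were tested. Each gene was represented by its row of highest mean. The members, the lists (270 symbols, 1 unmatched, 3 matched by older names) and the tests were chosen with earlier results of these data known. Named genes followed a written rule: the family, up to 4 called genes per pathway list with the smallest p and at least 5 FPKM, up to 2 uncalled genes of highest level, 2 markers per list and 3 rows of like pattern per member; some are left out for length, and some items the rule covers are not reported here. Kdr, Mfap5, Dpt, Trp63, Il10ra, Il7r, Il22, Ptpn2, Ptprt and Fgg were named after their values were seen. The fit was tested on simulated TNF and control libraries of 15037 genes, 200 of them altered. It recovered 26% at a log2 change of 1, 69.9% at 2 and 89.4% at 4, and 6.5% of its calls were false. In the data themselves 38.0% of tested rows were called, a far larger share than was altered in the simulation. These rates may therefore not carry over to the data.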

Additional observations from a re-analysis of the deposited data

How the results depend on the processing

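Alternatives were a pseudocount of 0.1, no filter, a filter of 5 FPKM, median-of-ratios and upper-quartile scaling, scaling to horizontal basal cell markers, a replicate block, no intensity trend, and omission of each library or of control replicate 4 and TNF replicate 1 together. Stat3, Stat5a and Socs3 stayed above 0 in all 15 and lost their call in 1, the marker scaling. The median log2 change of all rows was -0.07 with median-of-ratios, -0.08 with upper-quartile and -1.51 with marker scaling, and -0.22 as deposited. Marker scaling gave 0 higher and 1 lower of the 9 genes, 240 higher and 10385 lower of all rows, and 10 higher and 33 lower pathway rows, against 46 and 11 as deposited. Under it Stat2 was at -0.50, Stat3 0.47, Stat5a 0.93, Stat6 -0.24, Jak1 -1.01, Jak2 -0.33, Socs1 -0.0095, Socs2 -1.73 and Socs3 0.61, and Stat5b was at -0.50, the Jak3 row -0.15, Cish -0.066, Socs5 -0.78, Socs6 -0.94, Socs7 -0.66, Il6 -0.90, Il6st -0.51, the Irf9 row -0.29 and Fos -0.64.

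Replicate numbers 1 and 4 occur in both groups, but same-numbered libraries did not deviate together (correlations of -0.064 and -0.087), so the numbers were not taken as pairs. In the fit with a replicate block, control replicate 2 and TNF replicate 3 had no partner of the same number. The group effect then rested on numbers 1 and 4 alone, so it is not the same comparison with all libraries. With this block 4 of the 9 genes were higher, 744 rows were higher and 2246 lower, and 30 and 6 pathway rows. Stat2 (0.88), Stat6 (1.36) and Jak2 (1.003) lost their call, Tyk2 was at 0.097 and Il6 at -0.00025. Without the filter Stat2 (0.88) and Jak2 (1.05) missed the threshold, and a filter of 5 FPKM left 2655 lower rows. Tyk2 was at 0.12 with median-of-ratios, 0.10 with upper-quartile scaling.

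Leaving out 1 library gave 795 to 2016 higher and 1609 to 4924 lower rows, 26 to 57 and 5 to 12 pathway rows, and 5 to 8 higher members. The log2 change ran from 0.63 to 1.02 for Stat2, 0.32 to 0.60 for Jak1, 0.83 to 1.41 for Jak2, -0.26 to 0.11 for Tyk2, -0.049 to 0.26 for Socs7 and -0.24 to 1.77 for Il6. Without control replicate 4 and TNF replicate 1 together 2529 rows and 8 members were higher, Jak1 was at 0.62, Tyk2 at 0.078 and Socs7 at -0.19. The causes were not tested. Read depth is unknown and limits rows near 1 FPKM most.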
